A study of Mus musculus with 18 samples.

Results

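The 10 genes described here encode subunits of the transcription factor NF-kB and proteins that restrain it: the subunit genes Nfkb1, Nfkb2, Rel and Relb, the IkB genes Nfkbia, Nfkbie, Nfkbiz and Bcl3, and the feedback inhibitor genes Tnfaip3 and Zc3h12a. They were taken by name, with Ensembl gene IDs matched to mouse symbols, and are 10 of the 30583 genes with counts. All 10 were among the 16311 genes with enough counts to be tested. RNA was sequenced after poly(A) selection from heart tissue of 18 male mice of the strain C57BL/6JR, 12 weeks old, with 3 mice in each of 6 groups and 1 library per mouse. In 5 groups a ligature on the left anterior descending coronary artery caused a myocardial infarction, and the mice were killed 10 min or 1, 6, 24 or 72 h later. The sham group, labelled 0 h, was also anaesthetised and operated on, with the suture passed but not tied. No genetic modification is described for any group. The RNA came from the infarcted part of the left ventricle, and the labels also give cardiomyocytes as the cell type.

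In a resting cell, NF-kB dimers are held in the cytoplasm by IkB proteins. Signals from Toll-like, interleukin-1 and TNF receptors activate the IKK complex, IkB is phosphorylated and degraded, and the freed dimers move to the nucleus, where they switch on cytokine, chemokine and adhesion genes. Among the genes they switch on are those of their own inhibitors, above all IkBα (Nfkbia) and A20 (Tnfaip3), so that the pathway limits itself. In the infarcted heart this pathway is known for its part in the inflammation that follows the death of cardiomyocytes. NF-kB activity is set by protein location and stability, and RNA levels do not measure it.

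NF-kB is known to bind a short DNA motif, and this motif was looked for around the starts of the 10 genes. RefSeq promoter windows (build GRCm38.p6, from 250 bases before to 50 bases after the start) were held for 7 of the 10 genes; Nfkbiz, Nfkb1 and Relb had no entry. In 6 of these 7 genes, all but Zc3h12a, a window held the NF-kB consensus, a motif of 10 bases searched on both strands with overlapping matches merged. The match lay before the RefSeq start in 5 of them (Nfkbia, Nfkbie, Nfkb2, Rel and Tnfaip3) and only after it in Bcl3. The same motif stood in 9.55% of the 27025 genes with a window, and in 8.46% of all windows of 300 bases. A match is a string of letters and no evidence that a factor binds there. The sequences below are shown because they hold these matches. They are written 5′ to 3′ on the strand of the gene and end at or just before its RefSeq start, with the matching bases in capitals. The Nfkb2 and Tnfaip3 stretches lie inside the annotated spans of their genes, which begin further upstream, and so may fall within other transcripts. For Nfkb2 only the short surroundings of each match are given.
Nfkbia, chr12:55492648-55492797, minus strand: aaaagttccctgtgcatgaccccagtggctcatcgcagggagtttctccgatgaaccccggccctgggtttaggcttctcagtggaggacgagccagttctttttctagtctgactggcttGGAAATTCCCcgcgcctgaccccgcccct
Nfkbie, chr17:45555550-45555699, plus strand: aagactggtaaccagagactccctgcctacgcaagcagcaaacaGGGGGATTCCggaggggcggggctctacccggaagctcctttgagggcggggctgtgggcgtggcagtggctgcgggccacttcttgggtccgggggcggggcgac
Rel, chr11:23770971-23771119, minus strand: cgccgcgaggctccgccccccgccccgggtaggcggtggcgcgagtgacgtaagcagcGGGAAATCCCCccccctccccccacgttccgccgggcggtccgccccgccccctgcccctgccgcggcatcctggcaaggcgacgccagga
Tnfaip3, chr10:19015411-19015547, minus strand: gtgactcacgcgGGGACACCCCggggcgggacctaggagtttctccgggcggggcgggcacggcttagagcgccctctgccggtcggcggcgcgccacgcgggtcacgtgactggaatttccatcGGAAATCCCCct
Nfkb2, first stretch, chr19:46304697-46304725, plus strand: cGGGAATTCCCCccctcggggggccgaaa
Nfkb2, second stretch, chr19:46304717-46304736, plus strand: gggccgaaaGGGGCTTTCCc

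The matches fell at different distances from the RefSeq start. Counted with -1 as the last base before the start, the Nfkbia match began at -29, the Nfkbie match at -106 and the Rel match at -92. Tnfaip3 held 2 matches, beginning at -125 and -12, and the first Nfkb2 window held 2, beginning at -39 and -11. The Bcl3 match, GGGAAGTCCC, lay inside the transcript, from base 3 after the start.

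Libraries held 18.2 to 25.1 M counts (M, mega), and levels are given as counts per M counts scaled by TMM (CPM), as mean ± SD over the 3 mice of a group. The lowest count of any of the 10 genes in a library was 20, for Nfkbie at 1 h. Cardiomyocyte markers were abundant in every library, with a summed level of 38910 to 42940 CPM in sham, but fibroblast, endothelial and macrophage markers were also present in all of them (575.6 to 590.4, 1125 to 1231 and 207.6 to 239.4 CPM in sham), so the values are those of a tissue and not of cardiomyocytes alone. In such bulk samples, fewer cells of a type and less RNA per cell cannot be told apart. At 6 h replicate 1 held the highest level of 10 of the 10 genes, and at 24 h replicate 3 held the highest level of 10 of 10. The summed level of 8 neutrophil markers was also highest in those libraries. It was 789.7 CPM in replicate 1 at 6 h against 282.1 and 108.4 CPM in the others, and 806.6 CPM in replicate 3 at 24 h against 186.8 and 46.2 CPM.

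**Figure D1:**
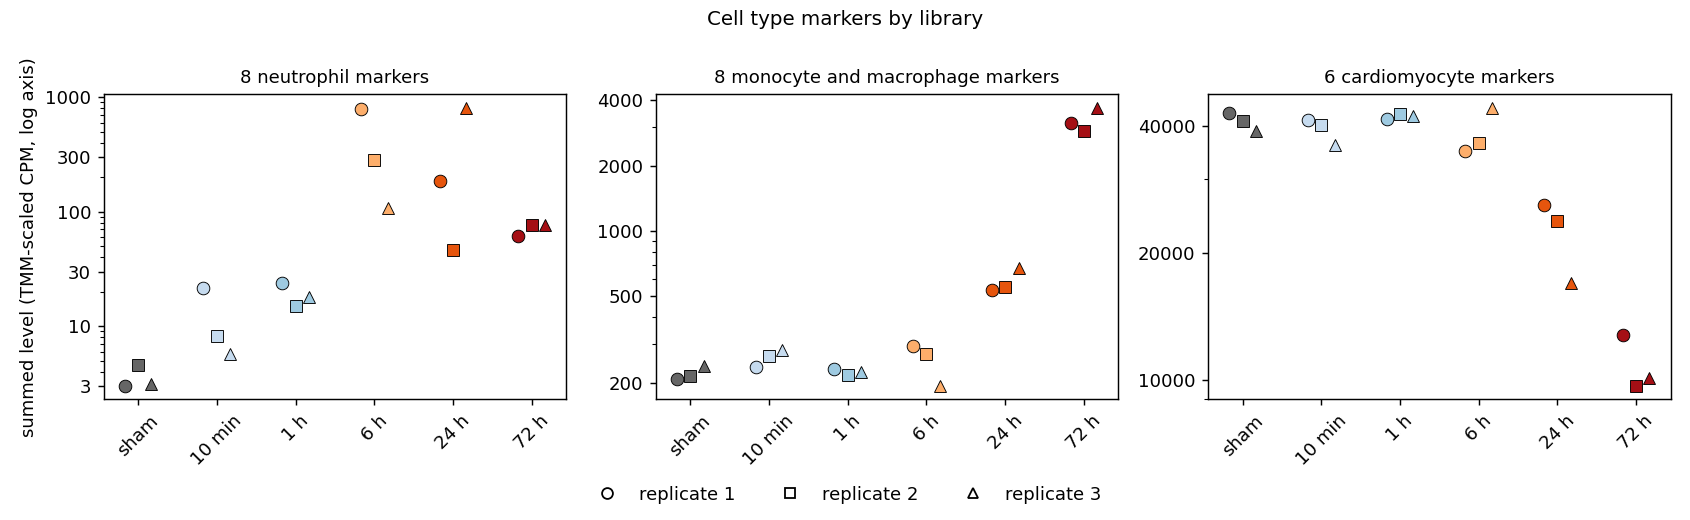
Summed level of neutrophil, monocyte and macrophage, and cardiomyocyte markers in each of the 18 libraries, in TMM-scaled CPM on a log axis, by group. Neutrophil markers ran from 108.4 to 789.7 CPM at 6 h and from 46.2 to 806.6 CPM at 24 h, while the 72 h libraries lay close together in all 3 panels.

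The main question was at which times after ligation these genes differed from sham. A gene was called when its edgeR adjusted p, corrected over all 16311 genes tested, was under 0.05. At 10 min, 0 of the 10 were called by edgeR, where 0.0736% of all genes were; 0 also had an unadjusted p under 0.05, as 7.01% of all genes did, and DESeq2 called 0. At 1 h, Nfkbiz was called higher (0.294% of all genes were called and 0.288% called higher). At 6 h, 8 of the 10 were called, all higher, beside 28.4% of all genes called in either direction and 16.3% called higher. At 24 h, 7 were called, all higher, beside 43.8% and 23.7%. At 72 h, 8 were called, all higher, beside 66.4% and 34.2%. The 10 genes had a median log2 fold change (log2FC) against sham of 0.22 at 10 min, 0.06 at 1 h, 1.23 at 6 h, 1.03 at 24 h and 1.11 at 72 h, while the median of all genes tested lay between -0.01 and 0.03. By the plain spread of the libraries, all 3 lay above all 3 of sham for 1 of the 10 genes at 10 min (11% of all genes), 3 at 1 h (8.25%), 9 at 6 h (23.1%), 7 at 24 h (28%) and 9 at 72 h (39.3%). The F test over all times called 9 of the 10, all but Tnfaip3, beside 78.4% of all genes. All these comparisons share the 3 sham libraries.

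The calls changed from time to time. The 8 genes called at 6 h were all but Nfkb1 and Tnfaip3. The 7 called at 24 h were Nfkbia, Nfkbie, Nfkbiz, Bcl3, Nfkb2, Relb and Zc3h12a. At 72 h Nfkbia and Tnfaip3 were the genes not called. Leaving out 1 library of the groups compared gave 6 to 10 calls at 6 h, with 6 without replicate 1 at 6 h, sham replicate 2 or sham replicate 3. It gave 5 to 8 at 24 h, with 5 without replicate 3 at 24 h or sham replicate 2. At 72 h each such fit gave 6, and the calls of Rel and Zc3h12a were lost every time. With replicate 1 at 6 h and replicate 3 at 24 h both left out, 9 were called at 6 h and 6 at 24 h. The number of all genes called in these left-out fits is not given here, so these counts have no background beside them.

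**Figure D2:**
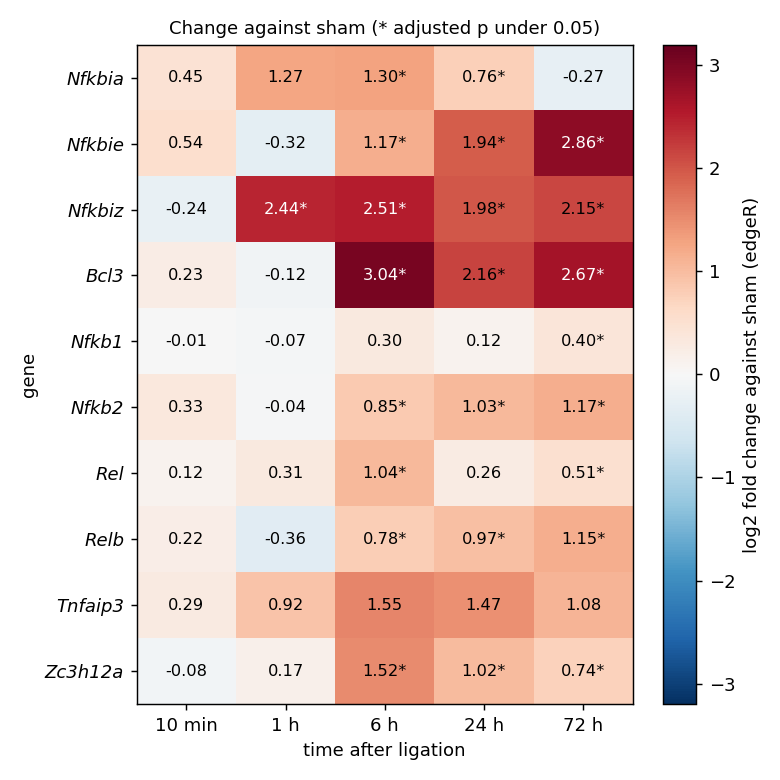
Log2 fold change against sham of each of the 10 genes (rows) at 5 times (columns), from the edgeR model; each cell prints the value, coloured on a scale centred on 0, and an asterisk marks an edgeR adjusted p under 0.05. The asterisks fill most of the 6, 24 and 72 h columns, the 10 min column has none, and the 1 h column has 1, for Nfkbiz.

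Between neighbouring times, the most calls fell between 1 and 6 h in the fit to all libraries. This order changed when 2 libraries were left out. From 10 min to 1 h, 1 of the 10 was called (Nfkbiz, higher), beside 0.307% of all genes. From 1 to 6 h, 7 were called higher, beside 24.5% of all genes called and 14.5% called higher. The 7 were Nfkbie, Nfkb1, Nfkb2, Rel, Relb, Bcl3 and Zc3h12a. From 6 to 24 h, 1 was called (Rel, lower), beside 27.8% of all genes, and from 24 to 72 h, 2 were called (Nfkbia lower, Nfkbie higher), beside 50.5%. Between 6 and 72 h, 4 were called, beside 63% of all genes: Nfkbia, Rel and Zc3h12a were lower at 72 h and Nfkbie was higher. Without replicate 3 at 24 h, 6 were called lower from 6 to 24 h and 5 higher from 24 to 72 h. Without that library and replicate 1 at 6 h together, 5 were called from 1 to 6 h, all higher, 6 from 6 to 24 h, all lower, and 9 from 24 to 72 h, 8 higher and 1 lower. The number of all genes called in these left-out fits is not given here, so these counts have no background beside them. The 2 libraries were the highest of their groups for all 10 genes, and leaving both out was added after seeing the data. That fit therefore cannot show what the order rests on. The splits after 6 h also depend on the scaling. Under scaling by library total, the median of all genes against sham stood at -0.12 at 6 h, 0.20 at 24 h and 0.61 at 72 h. The calls were then 6 higher and 0 lower from 24 to 72 h, 4 higher and 1 lower from 6 to 72 h, and 2 higher and 0 lower from 6 to 24 h. Of all genes, 8936, 11974 and 6880 were called under that scaling, in the same order. All directions here are relative to TMM scaling.

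**Figure D3:**
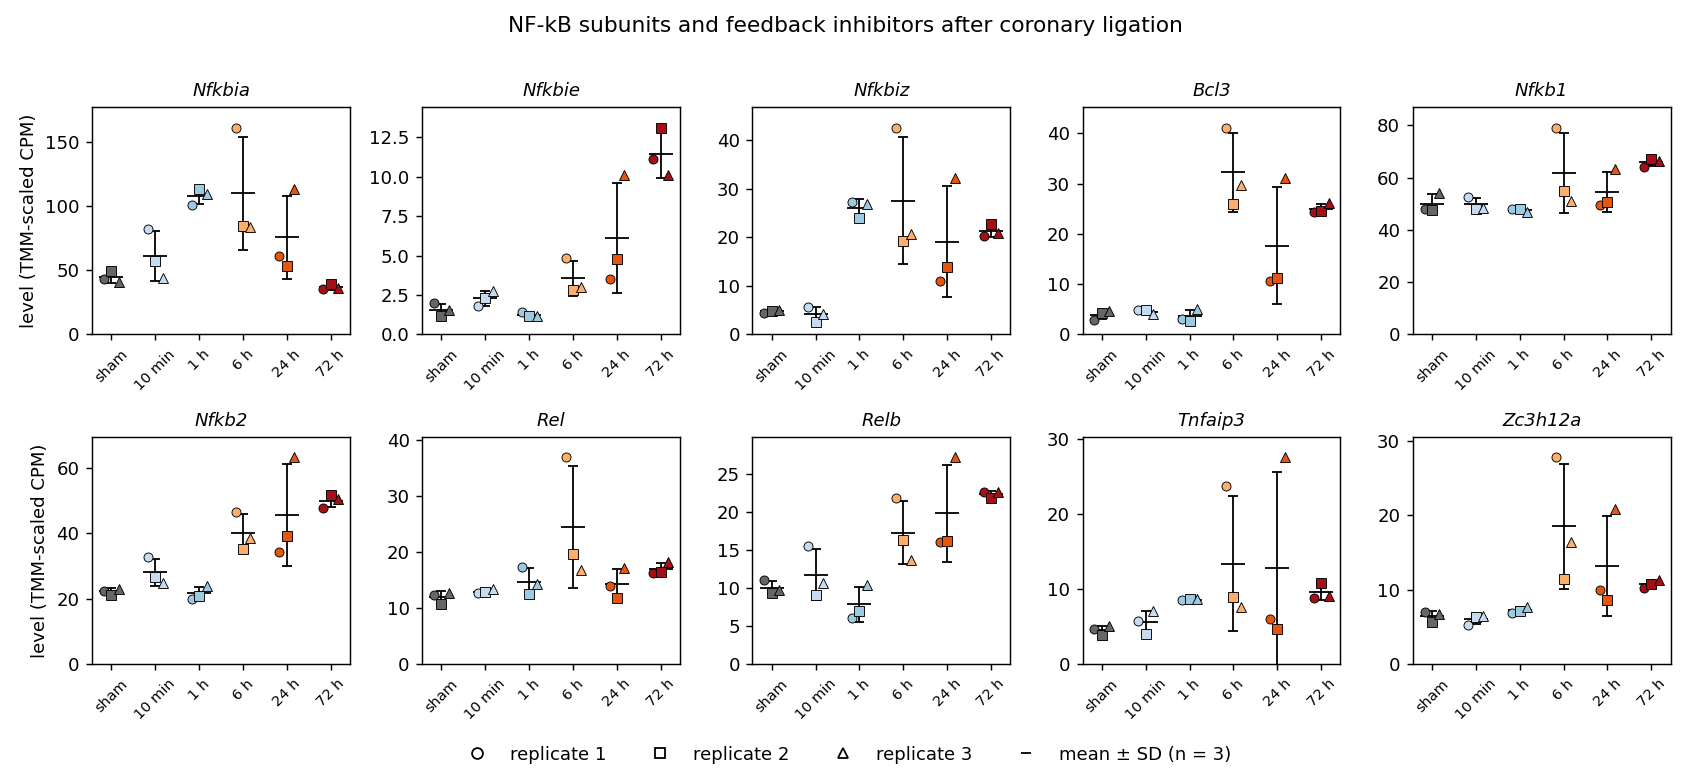
TMM-scaled CPM of each of the 10 genes in each of the 18 libraries, by group, with a point per mouse and a bar for the group mean with its SD; the axis starts at 0 and cuts the lower end of the SD of Tnfaip3 at 24 h. At 6 h replicate 1 and at 24 h replicate 3 are the highest points of all 10 panels.

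The classical inhibitors Nfkbia and Nfkbie moved in opposite ways late in the course. Nfkbia (ENSMUSG00000021025, chromosome 12, 55489410 to 55492647) encodes IkBα, the inhibitor that is degraded and resynthesised within hours of a signal. It measured 43.4, 49.7 and 41.1 CPM in the sham libraries, 82.3, 57.3 and 44.2 at 10 min, 101, 113.1 and 109.4 at 1 h, 161.1, 84.8 and 84.0 at 6 h, 61.2, 53.4 and 113 at 24 h, and 35.4, 39.7 and 36.5 CPM at 72 h. All libraries from 1 to 24 h lay above all sham libraries, those of 10 min overlapped sham, and those of 72 h lay below it. The rise was called at 6 h (44.8 ± 4.46 in sham, 110 ± 44.3 CPM at 6 h, n = 3; log2FC 1.30, SE 0.30, edgeR adjusted p = 0.00498) and 24 h (log2FC 0.76, edgeR adjusted p = 0.0493). The 1 h mean, 107.8 ± 6.21 CPM, was as high as that of 6 h and its log2FC was 1.27, but with the spread shared over all groups it was not called (edgeR adjusted p = 0.157). It was called by DESeq2 (adjusted p = 0.00106) and when the 6 libraries compared were fitted alone (edgeR adjusted p = 8.89e-08). The 24 h call was lost without replicate 3 at 24 h (log2FC 0.36), without any 1 of the sham libraries, under RLE scaling (edgeR adjusted p = 0.0511), without a filter on low counts (edgeR adjusted p = 0.118) and when only the 2 groups were fitted (edgeR adjusted p = 0.064).

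From 24 to 72 h Nfkbia fell by 1.02 on the log2 scale (SE 0.29, edgeR adjusted p = 0.00938), and from 6 to 72 h by 1.56 (edgeR adjusted p = 0.000322). The call from 24 to 72 h did not hold without replicate 3 at 24 h, where the change was -0.63 (edgeR adjusted p = 0.0636), and under library size scaling (-0.63, edgeR adjusted p = 0.0644). At 72 h the difference from sham was -0.27 (edgeR adjusted p = 0.442) and turned to 0.32 under library size scaling; fitted with sham alone it was -0.26 and was called (edgeR adjusted p = 0.0162). Of all genes, 36.5% had 3 libraries at 72 h below the 3 of sham.

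Nfkbie (ENSMUSG00000023947, chromosome 17, 45555703 to 45563169) encodes IkBε, a slower inhibitor that binds mainly dimers with Rel and RelA. Its level was low in sham (1.97, 1.19 and 1.56 CPM), at 10 min (1.81, 2.31 and 2.74) and at 1 h (1.40, 1.184 and 1.17), and then stood at 4.83, 2.82 and 3.04 CPM at 6 h, 3.50, 4.78 and 10.1 at 24 h and 11.1, 13.1 and 10.2 CPM at 72 h. Each of the later groups lay wholly above sham. The log2FC against sham was 1.17 at 6 h (SE 0.34, edgeR adjusted p = 0.0163), 1.94 at 24 h (SE 0.33, edgeR adjusted p = 0.000198) and 2.86 at 72 h (SE 0.33, edgeR adjusted p = 4.92e-07). The step from 24 to 72 h was called (0.92, SE 0.29, edgeR adjusted p = 0.0136), but lost without replicate 1 or 2 at 24 h or replicate 2 at 72 h. The 6 h call was lost without replicate 1 at 6 h (0.89, edgeR adjusted p = 0.0999), without sham replicate 2 or without sham replicate 3; without replicate 1 at 6 h and replicate 3 at 24 h together it was kept at the same 0.89 (edgeR adjusted p = 0.0115). Nfkbie was the gene of the 10 with the largest log2FC against sham at 72 h.

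The balance of these inhibitor RNAs shifted with time. Per kilobase of the gene length implied by the deposited FPKM, there was 45.2 ± 15.5 times as much Nfkbia as Nfkbie RNA in sham. It was 43.4 ± 22.7 times at 10 min. The size of this ratio depends on the lengths used, but its relative change between groups does not. The ratio was 131 ± 19.6 at 1 h, when every library (108 to 144) was above every other library of the course, and 45.7 ± 4.31 at 6 h. It was 20 ± 5.5 at 24 h and 4.92 ± 0.45 at 72 h, where the libraries ran from 4.55 to 5.41, below every other library. Scaling between libraries cancels in this ratio. It was read as a description, with no test.

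**Figure D4:**
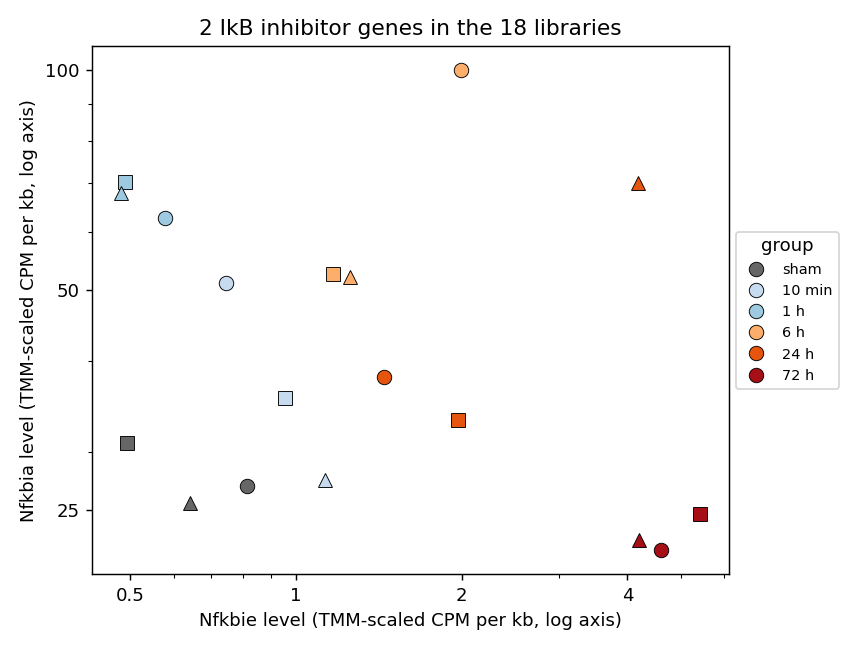
CPM per kb of Nfkbie (x axis) and Nfkbia (y axis), both on log axes, with a point for each library coloured by group and shaped by replicate (circle 1, square 2, triangle 3). The 1 h libraries stand high for Nfkbia and low for Nfkbie, and the 72 h libraries the reverse.

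The atypical IkB genes Nfkbiz and Bcl3, whose nuclear proteins IkBζ and Bcl-3 bind p50 or p52 homodimers and can turn on as well as restrain target genes, rose strongly but at different times. Nfkbiz (ENSMUSG00000035356, chromosome 16, 55811375 to 55838899) was the one gene of the 10 called at 1 h in the fit to all libraries, though Nfkbia and Tnfaip3 also lay wholly above sham then. Its sham libraries held 4.50, 4.88 and 5.02 CPM and its 10 min libraries 5.60, 2.65 and 4.19 CPM. At 1 h it was at 27.4, 24.0 and 26.8 CPM, at 6 h at 42.6, 19.3 and 20.7, at 24 h at 11.1, 14.0 and 32.2, and at 72 h at 20.3, 22.7 and 20.8 CPM. No library from 1 h on fell into the sham range. The 1 h change was called (log2FC 2.44, SE 0.40, edgeR adjusted p = 0.0107), as was the step from 10 min to 1 h (2.68, SE 0.41, edgeR adjusted p = 0.00892). These 1 h calls had a narrow margin: that against sham was lost without any 1 of the sham libraries (edgeR adjusted p = 0.0809 to 0.0969), and that against 10 min without replicate 2 or 3 at 10 min, with little change in size. The later calls were kept with the highest library left out. The log2FC was 2.51 at 6 h (2.05 without replicate 1), 1.98 at 24 h (1.39 without replicate 3) and 2.15 at 72 h (SE 0.39, edgeR adjusted p = 0.000204).

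Bcl3 (ENSMUSG00000053175, chromosome 7, 19808462 to 19822770) was not called at 1 h (log2FC -0.12, edgeR adjusted p = 0.999). It measured 2.88, 4.25 and 4.58 CPM in sham, 4.79, 4.79 and 4.13 at 10 min and 3.14, 2.67 and 5.01 at 1 h. At 6 h it was at 41.1, 26.0 and 29.7 CPM, at 24 h at 10.6, 11.3 and 31.0, and at 72 h at 24.3, 24.6 and 26.1 CPM. The 6 h libraries were all above every earlier one. At 24 h, replicates 1 and 2 lay below all libraries of 6 and 72 h, and replicate 3 lay within the range of 6 h. Bcl3 had the largest 6 h change of the 10 genes (log2FC 3.04, SE 0.37, edgeR adjusted p = 5.47e-05) and stayed high at 24 h (2.16, SE 0.37, edgeR adjusted p = 0.000376) and 72 h (2.67, SE 0.37, edgeR adjusted p = 1.3e-05). The step from 6 to 24 h was -0.88 and was not called (edgeR adjusted p = 0.0609). Without replicate 3 at 24 h it was -1.56 and was called (edgeR adjusted p = 5.35e-05), and DESeq2 called it as well (-0.88, adjusted p = 0.0279). The order of the 2 genes showed in their ratio per kb: there was 0.63 ± 0.13 times as much Nfkbiz as Bcl3 RNA in sham, 3.79 ± 1 times at 1 h and 0.41 ± 0.09 times at 6 h.

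No subunit gene among the 10 moved by more than 1.17 on the log2 scale against sham. Nfkb1 and Nfkb2 encode the precursors of p50 and p52, which bind DNA but lack an activation domain, and Rel and Relb encode subunits that have one. Nfkb1 (ENSMUSG00000028163, chromosome 3, 135584655 to 135691547) measured 48.1, 47.8 and 54.2 CPM in sham, 52.7, 48.2 and 48.4 at 10 min, 47.9, 47.9 and 46.9 at 1 h, 79.2, 55.0 and 51.0 at 6 h, 49.6, 50.9 and 63.3 at 24 h, and 64.3, 67.2 and 66.6 CPM at 72 h. Apart from replicate 1 at 6 h and replicate 3 at 24 h, only the 72 h libraries stood clearly above sham, and they rose by 0.40 on the log2 scale (SE 0.13, edgeR adjusted p = 0.0105). At 6 h the value against sham was 0.30 (edgeR adjusted p = 0.088) and at 24 h 0.12 (edgeR adjusted p = 0.452). The call between 1 and 6 h (0.37, edgeR adjusted p = 0.0419) was lost without replicate 1 at 6 h, where the value was 0.16 (edgeR adjusted p = 0.34). It was also lost without any 1 of the 1 h libraries.

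Nfkb2 (ENSMUSG00000025225, chromosome 19, 46304320 to 46312385) rose more, and from 6 h on. It was at 22.5, 21.1 and 23.1 CPM in sham, 32.8, 26.6 and 24.7 at 10 min, 19.9, 20.9 and 23.9 at 1 h, 46.6, 35.2 and 38.5 at 6 h, 34.2, 39.1 and 63.2 at 24 h and 47.8, 51.5 and 50.6 CPM at 72 h. The 10 min libraries already lay above the sham libraries, with a log2FC of 0.33 that was not called (edgeR adjusted p = 0.786), and 11% of all genes showed such a gap. The log2FC was 0.85 at 6 h (SE 0.18, edgeR adjusted p = 0.00184), 1.03 at 24 h (SE 0.18, edgeR adjusted p = 0.000215) and 1.17 at 72 h (SE 0.18, edgeR adjusted p = 1.32e-05). The 6 h call was kept without replicate 1 (0.73, edgeR adjusted p = 0.0127).

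Relb (ENSMUSG00000002983, chromosome 7, 19606217 to 19629438), whose protein pairs mainly with p52 in the non-canonical pathway, followed Nfkb2. Its libraries held 11.02, 9.39 and 9.77 CPM in sham, 15.5, 9.15 and 10.7 at 10 min, 6.09, 7.05 and 10.4 at 1 h, 21.9, 16.3 and 13.7 at 6 h, 16.1, 16.2 and 27.2 at 24 h, and 22.6, 21.9 and 22.6 CPM at 72 h. All libraries from 6 h on lay above those of sham. The log2FC was 0.78 at 6 h (SE 0.24, edgeR adjusted p = 0.0229), 0.97 at 24 h (SE 0.24, edgeR adjusted p = 0.00358) and 1.15 at 72 h (SE 0.24, edgeR adjusted p = 0.000396). The 6 h call was lost without replicate 1 at 6 h (0.58, edgeR adjusted p = 0.126) and without sham replicate 2 or 3.

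Rel (ENSMUSG00000020275, chromosome 11, 23736847 to 23770970) encodes c-Rel, best known from lymphocytes and myeloid cells. It measured 12.3, 10.6 and 12.7 CPM in sham, 12.6, 12.8 and 13.4 at 10 min, 17.3, 12.6 and 14.2 at 1 h, 36.9, 19.7 and 16.8 at 6 h, 14.0, 11.8 and 17.2 at 24 h, and 16.2, 16.5 and 18.1 CPM at 72 h. The 6 h group was the highest, and its replicate 1 stood far above the rest. Rel rose by 1.04 on the log2 scale at 6 h (SE 0.22, edgeR adjusted p = 0.00232), and by 0.62 without that library (edgeR adjusted p = 0.00941). At 24 h the value was 0.26 (edgeR adjusted p = 0.353), and at 72 h 0.51 (edgeR adjusted p = 0.0484). The step from 1 to 6 h (0.73, edgeR adjusted p = 0.0229) was 0.31 without it and was not called (edgeR adjusted p = 0.195). The later drop rested on the same library. The change from 6 to 24 h, -0.77 (edgeR adjusted p = 0.014), was -0.36 without it (edgeR adjusted p = 0.0993), and was not called without replicate 2 at 24 h (-0.65, edgeR adjusted p = 0.0659) or under library size scaling (-0.46, edgeR adjusted p = 0.0772). From 6 to 72 h the change was -0.53 (edgeR adjusted p = 0.0411), -0.11 without it (edgeR adjusted p = 0.535) and 0.18 under library size scaling.

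Rela, which encodes the most studied activating subunit, p65, was not among the 10 genes, but makes their share of the family readable. Per kb, it made up 48.5% ± 0.861 of the RNA of the 5 subunit genes in sham, followed by Nfkb2 at 23.1% ± 0.247, Nfkb1 at 14.2% ± 0.723, Relb at 8.84% ± 0.651 and Rel at 5.43% ± 0.318. At 72 h the share of Rela was 38.6% ± 1.42, that of Nfkb2 32.5% ± 0.972, that of Relb 12.3% ± 0.431, that of Nfkb1 11.7% ± 0.202 and that of Rel 4.86% ± 0.338. The 72 h ranges of Nfkb2 (31.4% to 33.2%) and Relb (11.8% to 12.6%) lay above their sham ranges (22.8% to 23.3% and 8.36% to 9.58%), and that of Rela (37% to 39.8%) lay below (47.8% to 49.5%). At 72 h Relb and Nfkb1, neighbours in this order, were not separated, with ranges of 11.8% to 12.6% and 11.5% to 11.9% that overlapped. Rela itself rose in level by 0.72 at 6 h (edgeR adjusted p = 0.00112), 0.48 at 24 h (edgeR adjusted p = 0.011) and 0.34 at 72 h (edgeR adjusted p = 0.039) on the log2 scale, so its smaller share went with a higher level. Shares and their order depend on gene length. Without it, Nfkb1 made up 37.7% of subunit counts in sham, ahead of Rela at 29.1%, and 32.3% at 72 h. The length used for Nfkb1, 12061 bases, is the one implied by the deposited FPKM. The length of its transcripts was not measured, so the order of the subunits within a group is not settled.

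**Figure D5:**
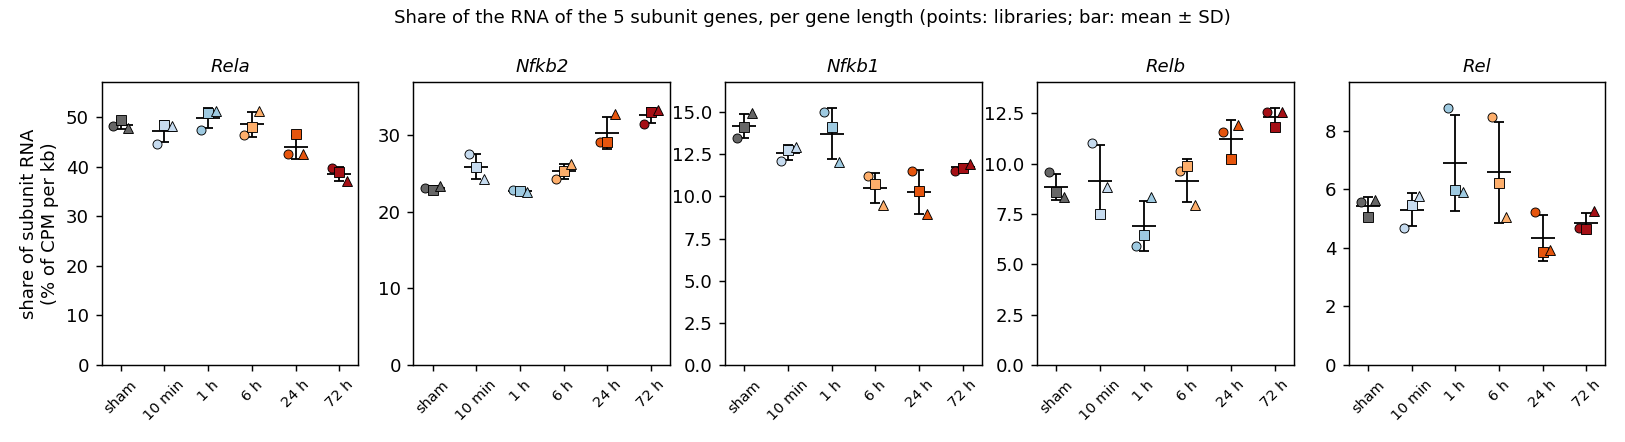
Share of each of the 5 subunit genes in the RNA of the NF-kB subunits, per kb of length, in percent, by group, with a panel per gene, a point per library and a bar for the group mean with its SD. The 72 h points of Nfkb2 and Relb lie above those of sham, and those of Rela below.

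The feedback inhibitors Tnfaip3 and Zc3h12a differed in how steady their values were. Tnfaip3 (ENSMUSG00000019850, chromosome 10, 19000910 to 19015657) encodes A20, an enzyme that edits ubiquitin chains on signalling proteins upstream of IKK. It was at 4.65, 3.94 and 5.02 CPM in sham, 5.73, 4.07 and 7.04 at 10 min, 8.50, 8.71 and 8.63 at 1 h, 23.7, 8.95 and 7.56 at 6 h, 6.00, 4.67 and 27.6 at 24 h, and 8.86, 10.8 and 9.04 CPM at 72 h. The libraries of 1, 6 and 72 h all lay above sham, and those of 24 h overlapped it. No comparison was called in the fit to all libraries. The log2FC was 0.92 at 1 h (edgeR adjusted p = 0.957), 1.55 at 6 h (SE 0.59, edgeR adjusted p = 0.0649), 1.47 at 24 h (SE 0.59, edgeR adjusted p = 0.0576) and 1.08 at 72 h (edgeR adjusted p = 0.119). The spread within a group was widest at 6 and 24 h, with replicate 1 and replicate 3 far above the rest. Without both libraries the 6 h value was 0.86 and was called (edgeR adjusted p = 0.00258), and that of 24 h was 0.23 (edgeR adjusted p = 0.402). That fit left out the highest libraries after the data were seen, so its 6 h call depends on that choice. Fitted with sham alone, the 1 h value (0.92, edgeR adjusted p = 0.00167) and the 72 h value (1.08, edgeR adjusted p = 1.06e-05) were called, and DESeq2 called 6 h (1.57, adjusted p = 0.0269) and 24 h (1.5, adjusted p = 0.0252).

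Zc3h12a (ENSMUSG00000042677, chromosome 4, 125118423 to 125127840) encodes Regnase-1, a ribonuclease that degrades cytokine mRNAs such as that of Il6. Its libraries held 6.93, 5.60 and 6.71 CPM in sham, 5.29, 6.38 and 6.48 at 10 min, 6.81, 7.17 and 7.70 at 1 h, 27.8, 11.4 and 16.4 at 6 h, 10.0, 8.56 and 20.8 at 24 h, and 10.3, 10.7 and 11.3 CPM at 72 h. From 6 h on, every library was above every sham library. Zc3h12a rose by 1.52 on the log2 scale at 6 h (SE 0.31, edgeR adjusted p = 0.0019), by 1.02 at 24 h (SE 0.31, edgeR adjusted p = 0.0136) and by 0.74 at 72 h (SE 0.31, edgeR adjusted p = 0.0426). Without replicate 1 the 6 h value was 1.11, still called, and without replicate 3 the 24 h value was 0.53 and was not (edgeR adjusted p = 0.11); the 24 h call was also lost without sham replicate 2 (edgeR adjusted p = 0.0539). It fell by 0.78 from 6 to 72 h (edgeR adjusted p = 0.0297), a call lost without replicate 1 at 6 h (-0.38, edgeR adjusted p = 0.235) or any 1 of the 72 h libraries, and under library size scaling (-0.07, edgeR adjusted p = 0.828).

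By the time of their highest mean, the 10 genes fell into 6 that were highest at 6 h (Nfkbia, Nfkbiz, Rel, Bcl3, Tnfaip3 and Zc3h12a) and 4 that were highest at 72 h (Nfkbie, Nfkb1, Nfkb2 and Relb). For 3 of the first 6 the 6 h peak rested on replicate 1. Without it the 6 h mean of Nfkbia was 84.4 CPM, below the 107.8 CPM of 1 h, that of Nfkbiz was 19.97 CPM, below the 26.1 CPM of 1 h, and that of Tnfaip3 was 8.26 CPM, below the 9.58 CPM of 72 h. Across the 18 libraries, which share time points and the 2 high libraries, the log2 levels of Nfkb2 and Relb ran most alike of the 45 pairs (Pearson r = 0.957, n = 18), and those of Nfkbia and Nfkbie least (r = -0.296). Outside the 10 genes, among 11659 genes with enough counts, those most like each were Myd88 (r = 0.987) and Il4ra (0.978) for Bcl3, Tax1bp3 (0.982) and Pfkfb4 (0.98) for Nfkbie, Pxn (0.973) and Sdc4 (0.955) for Zc3h12a, and Itgb3 (0.971) and Ripk3 (0.97) for Nfkb2. For Relb they were Tfpi2 (0.95) and Etv6 (0.938), for Nfkb1 Cmtm6 (0.947) and Tmod3 (0.933), and for Rel Dnajb1 (0.936) and Wdr26 (0.912). Nfkbiz ran most like Atf3 (0.935), the gene of a stress-induced transcription factor, and Socs3 (0.919), the gene of an inhibitor of cytokine signalling. Nfkbia ran most like Sik1 (0.932) and Csrnp1 (0.925). Tnfaip3 had the loosest neighbours, Dhx15 (0.892) and Edn1 (0.876). These are descriptions with no test.

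The rest of the pathway was read from lists of known parts. Their counts stand beside 0.294% of all genes called in either direction at 1 h, 28.4% at 6 h, 43.8% at 24 h and 66.4% at 72 h. Called higher were 0.288%, 16.3%, 23.7% and 34.2% of all genes at these times. The other subunit and IkB genes, Rela, Nfkbib and Nfkbid, gave 0 calls at 10 min and at 1 h, 2 of 3 called higher at 6 h, 3 at 24 h and 2 at 72 h. Nfkbib, the gene of IkBβ, rose by 0.44 at 6 h and 0.33 at 24 h on the log2 scale (edgeR adjusted p = 0.00722 and 0.0211) and stood at -0.18 at 72 h (edgeR adjusted p = 0.169). Nfkbid, another atypical IkB gene, stayed low, at 0.49 ± 0.31 CPM in sham and 2.98 ± 0.82 at 72 h (log2FC 2.57, SE 0.79, edgeR adjusted p = 0.00943). Its highest mean was at 24 h, 4.09 ± 4.68 CPM, with libraries from 1.165 to 9.49 CPM.

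Among 11 genes of the IKK complex and its kinases, 0 were called at 1 h, 3 were called higher and 1 lower at 6 h, 3 higher at 24 h, and 6 higher and 4 lower at 72 h (median log2FC 0.27, against 0.03 over all genes). Ikbke, an IKK-related kinase, was at 1.92 ± 0.43 CPM in sham, 1.86 ± 0.33 at 6 h and 15.6 ± 2.64 at 72 h (log2FC at 72 h 3.03, SE 0.52, edgeR adjusted p = 0.000103). Ikbkg, the scaffold NEMO of the IKK complex, fell at 6 h by 0.49 (edgeR adjusted p = 0.000796) and at 72 h by 0.43 on the log2 scale (edgeR adjusted p = 0.000408). Map3k8, a kinase that is held by p105, the Nfkb1 product, rose by 1.63 at 6 h (SE 0.32, edgeR adjusted p = 0.00132).

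Of 17 adaptor genes, which link receptors to IKK, 0 were called at 1 h, and 7 were called higher and 1 lower at 6 h. At 24 h 10 were called higher and 1 lower, and at 72 h 10 higher and 2 lower. The 72 h share called in either direction was near that of all genes (66.4%), while the share called higher was above it (34.2% of all genes). Myd88, the adaptor of Toll-like and interleukin-1 receptors, measured 9.82 ± 0.59 CPM in sham, 30.2 ± 4.17 at 6 h and 29.1 ± 2.29 at 72 h, and its rise at 6 h was called (log2FC 1.62, SE 0.19, edgeR adjusted p = 1.31e-05). Its partner Irak4 rose by 1.63 (edgeR adjusted p = 7.59e-08) and Ripk1, a kinase of the TNF receptor complex, by 1.53 at 72 h (edgeR adjusted p = 1.4e-06). Of 12 other brakes on the pathway, 6 were called higher at 6 h and at 24 h, and 5 higher and 1 lower at 72 h. Their 72 h share called in either direction was below that of all genes. The deubiquitinase gene Otulin rose most at 24 h (0.92, edgeR adjusted p = 1.54e-05) and Tnip2, whose protein binds A20, at 6 h (1.09, edgeR adjusted p = 0.000158). Zc3h12d, a relative of Zc3h12a, went from 0.26 ± 0.24 CPM in sham up to 7.17 ± 0.34 CPM at 72 h (log2FC 4.75, SE 0.43, edgeR adjusted p = 2.25e-08).

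Of 12 known NF-kB target genes, 1 was called at 1 h, the chemokine gene Cxcl1. Their median log2FC at 1 h was 1.71, against -0.01 over all genes, and for 8 of the 12 all 1 h libraries lay above all sham libraries, as for 8.25% of all genes. At 6 h 10 were called higher (median log2FC 4.92). At 24 h 10 were higher and 1 lower (4.21), and at 72 h 7 were higher and 1 lower (2.43). Sele, the gene of the endothelial adhesion molecule E-selectin, was at 1.53 ± 0.64 CPM in sham, 20.4 ± 9.21 at 6 h and 3.07 ± 0.51 at 72 h (log2FC at 6 h 3.72, SE 0.39, edgeR adjusted p = 7.41e-06). Vcam1, another adhesion gene, was highest at 72 h (1.60, SE 0.15, edgeR adjusted p = 4.13e-08). Sod2, the gene of the mitochondrial superoxide dismutase, went the other way: it was at 638.2 ± 10.3 CPM in sham and 196.6 ± 36.9 at 72 h (log2FC -1.70, SE 0.15, edgeR adjusted p = 1.27e-08). The cardiomyocyte markers were lower too at 72 h, with 6 of 6 called and a summed level of 9699 to 12820 CPM; their part in the Sod2 value was not tested.

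Markers of other cells moved with the same groups. Their counts too stand beside 28.4%, 43.8% and 66.4% of all genes called in either direction at 6, 24 and 72 h, and 16.3%, 23.7% and 34.2% called higher. Of 8 neutrophil markers, 8 were called higher at 6 h, 7 at 24 h and 6 at 72 h. Their summed level at 72 h was 61.5 to 77.2 CPM against 3.03 to 4.62 in sham. Ly6g was at 0 in every sham library and averaged 0.01 CPM at 72 h, and Retnlg averaged 0.086 and 0.28 CPM. The 72 h values of both overlapped sham, while Csf3r (24.8 CPM) and Mmp9 (18.3 CPM) had the highest 72 h means. Of 8 monocyte and macrophage markers, 4 were called higher and 2 lower at 6 h, 7 higher at 24 h and 8 higher at 72 h. Their summed level went from 207.6 to 239.4 CPM in sham to 2900 to 3693 CPM at 72 h. Lyz2 made up most of the 72 h sum, with a mean of 2369 CPM (129.5 in sham). Fibroblast markers reached 3939 to 5087 CPM at 72 h, with 5 of 5 called higher. Col1a1 made up most of that sum, with a mean of 3549 CPM (74.4 in sham), while Dcn went from 411.8 to 513.7 CPM. Of 5 endothelial markers, 3 were called lower at 24 h and 4 at 72 h, when their summed level was 663.9 to 888.9 CPM. T cell markers were low, at 0.711 to 1.71 CPM in sham and 2.89 to 5.35 CPM at 72 h; 3 of the 6 had enough counts to be tested, and those 3 were called higher at 72 h. B cell markers were low too, at or under 8.28 CPM in every library, with 3 of 5 called higher at 24 h and at 72 h. At 10 min 0 of the 5 B cell markers were called by edgeR, but 4 had an unadjusted p under 0.05 (7.01% of all genes) and all 5 lay wholly above sham (11% of all genes), with a summed level of 5.88 to 6.14 CPM against 2.18 to 3.34 CPM. The part of these cells in the levels of the 10 genes was not tested. At 1 h, when Nfkbiz was called and Nfkbia stood above sham, neutrophil markers were at 15.0 to 24 CPM (3.03 to 4.62 in sham). Of the 8, 0 were called and 0 had an unadjusted p under 0.05. Still, 7 lay wholly above sham (8.25% of all genes), with a median log2FC of 2.12. Already at 10 min 5 of the 8 lay wholly above sham (11% of all genes), with a median log2FC of 2.1 and 0 called. Macrophage markers were at 216.2 to 231.2 CPM at 1 h, within their sham range of 207.6 to 239.4 CPM. Lyz2 made up most of that sum, with a mean of 131.5 CPM at 1 h. Of the 8 markers 0 were called at 1 h, but 1, Cx3cr1, lay wholly below sham (3.08 to 4.90 against 5.31 to 7.60 CPM). Such a gap was seen for 1412 of the 16311 genes tested.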

How the data were processed

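The authors deposited whole-number counts per Ensembl gene and FPKM for 18 libraries of total RNA enriched for poly(A), per the labels' protocols. Per the submitters' processing notes, cutadapt 1.18, HISAT2 2.1.0 and featureCounts were used with mm10; the featureCounts version, the annotation and any use of strand are not given in the sources used here, so reads of a gene and of an overlapping antisense gene could not be told apart. The deposited FPKM were used for gene lengths and for 1 alternative; 2 FPKM columns, replicates 2 and 3 at 6 h, each follow the counts of the other.

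The count analysis used edgeR 4.0.16 under R 4.3.3: filterByExpr kept 16311 of 30583 genes, libraries were scaled by TMM, and a robust quasi-likelihood model over all 18 libraries, with a mean for each group, was tested two-sided, with Benjamini-Hochberg adjustment over all genes tested. The biological coefficient of variation was 0.149. Log2 fold changes are the model's. Each SE was computed from the log2 fold change and the quasi-likelihood F statistic of its test. The script was tested on simulated data. Symbols, coordinates and spans come from GENCODE M21 (GRCm38), and promoter windows from RefSeq.

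Alternatives were scaling by library size or RLE, no filter or a minimum of 10 counts in every library, a fit to the 2 groups alone, DESeq2 1.42.0, limma 3.58.1 on log2(FPKM + 1) with a pseudocount of 1, a replicate block, and each library left out in turn. Leaving out replicate 1 at 6 h and replicate 3 at 24 h together was added after seeing the data.

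The members and all lists were chosen with earlier results of these data known. All 10 members are described. Of the other subunit and IkB genes every gene is named, and from each other pathway list the 3 with the lowest adjusted p in the F test; Cxcl1, the call at 1 h, was named after its values were seen. Nearest genes are the 2 with the highest Pearson r on log2 CPM (prior count 2) among tested genes averaging at least 50 counts. Reads without molecular identifiers are not all independent molecules.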

Additional observations from a re-analysis of the deposited data

Results flagged for a closer look

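For the 10 genes, 15 differences between times after ligation passed the test of the difference itself, which is the same as a difference between the effects of 2 times against the shared sham group (edgeR adjusted p under 0.05). From 10 min to 1 h this was Nfkbiz, with a log2 fold change of 2.68 (0.307% of all genes called). From 1 to 6 h Bcl3 (3.16), Nfkbie (1.49), Zc3h12a (1.35), Relb (1.14), Nfkb2 (0.89), Rel (0.73) and Nfkb1 (0.37) rose (24.5% of all genes called). From 6 to 24 h Rel changed by -0.77 (27.8%). From 24 to 72 h Nfkbia changed by -1.02 and Nfkbie by 0.92 (50.5%). From 6 to 72 h Nfkbia changed by -1.56, Zc3h12a by -0.78, Rel by -0.53 and Nfkbie by 1.69 (63%). Calls lost with some 1 library left out included Nfkbiz from 10 min to 1 h, and Nfkb1 and Rel from 1 to 6 h. They also included Rel from 6 to 24 h, Nfkbia and Nfkbie from 24 to 72 h, and Rel and Zc3h12a from 6 to 72 h.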

How the results depend on the processing

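Against sham, the number of the 10 genes called at 6, 24 and 72 h (8, 7 and 8) stayed within 1.5 times in every planned setting. At 1 h it was 1, with 3 when the 2 groups were fitted alone and 2 by DESeq2. From 6 to 24 h it was 1, with 2 under library size scaling, 0 for the 2 groups alone, 2 with the replicate block, 2 by DESeq2 and 6 without replicate 1 at 6 h and replicate 3 at 24 h together. From 24 to 72 h it was 2, with 6 under library size scaling, 1 for the 2 groups alone, 6 by limma and 9 without those 2 libraries. From 6 to 72 h it was 4, with 2 without a filter. Apart from library size scaling, the number of all genes called by these other fits is not given here. Their counts, and those with 1 library left out, therefore have no background beside them. With 1 library left out the counts ran from 0 to 0 at 10 min, 0 to 1 at 1 h, 6 to 10 at 6 h, 5 to 8 at 24 h and 6 to 6 at 72 h, from 0 to 1 for 10 min to 1 h, 5 to 7 for 1 to 6 h, 0 to 6 for 6 to 24 h, 1 to 5 for 24 to 72 h and 2 to 4 for 6 to 72 h; the F test gave 9 to 10. The sign turned for Nfkbia at 72 h against sham (0.32 under library size scaling, 0.31 by limma) and for Rel from 6 to 72 h (0.18 and 0.17). Why these signs turned was not tested. The share of Nfkb1 was 37.7% in sham and 32.3% at 72 h without gene length, against 14.2% and 11.7% per kb. Whether replicate numbers pair the mice was not settled. Of 45 pairs of same-numbered libraries from different groups, 4 had a correlation of deviations over 0.1 (median 0.035, range -0.256 to 0.252). Different-numbered libraries were not compared in the same way. With the replicate block, Nfkbia at 24 h (edgeR adjusted p = 0.0662) and Nfkb1 from 1 to 6 h (0.0529) were no longer called and Bcl3 from 6 to 24 h was (0.0314). Depth limits Nfkbie most, with 20 to 39 counts per library in sham and at 1 h.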
